A study of Mus musculus with 6 samples.

Results

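Heat shock proteins and their co-chaperones were examined in hind limb skeletal muscle of mice. The 86 members, of 25572 genes in the deposited table, are the genes whose symbols carry the stems Hspa, Hspb, Hspd, Hspe, Hsph, Hsp90, Dnaja, Dnajb, Dnajc, Cct or Bag, together with Cryab, and 78 of them were abundant enough to test. The HDCKO mice (Hdc-/-) lack histidine decarboxylase, the enzyme that makes histamine, and the WT mice carry it. All animals of both groups had hind limb ischaemia surgery (HLI), a cut in the blood supply of the leg, and muscle was taken 3 days later. There are 3 libraries per group, each labelled as 1 mouse, called HDCKO 1 to 3 and WT 1 to 3 here. Age, sex, strain, the muscle taken and how the Hdc allele was made are not stated in the sources used here, and unoperated muscle was not analysed here.

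Heat shock proteins are chaperones, which bind unfolded proteins, keep them from clumping and help them fold or reach degradation. Small heat shock proteins hold unfolding clients without using ATP, and muscle fibres are known for large amounts of several of them, on Z discs and intermediate filaments. Hsp70 and Hsp90 proteins work in cycles of ATP use. J proteins (the Dnaj families) bring clients to Hsp70, Bag proteins release its nucleotide, and the Cct ring folds actin and tubulin. The cytosol, the endoplasmic reticulum (ER) and the mitochondria each have a set of their own.

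Values are FPKM, fragments scaled to gene length and to library depth, and by a rough estimate the libraries held 29300000 to 37800000 fragments. Hdc had 1.22, 2.46 and 2.52 FPKM in HDCKO and 7.49, 7.72 and 8.17 FPKM in WT, lower in each HDCKO library than in any WT library (log2 change -1.74, SE 0.25, adjusted p = 0.00334). Markers of mature muscle fibres, 19 genes, made up 24.5%, 20.5% and 14.1% of all FPKM in HDCKO 1, 2 and 3, and 0.468%, 0.155% and 0.129% in WT 1, 2 and 3, so the defining genes of the labelled tissue were scarce in WT. All 19 were called higher in HDCKO (limma, Benjamini-Hochberg adjusted p under 0.05), with a median log2 change of 6.71. Neutrophil markers were called lower in 12 of 12 cases, macrophage markers in 6 of 12, endothelial markers in 5 of 10 and cell cycle genes in 10 of 12, where 42.6% of all genes tested were called lower, a share near that of the macrophage and endothelial markers. In whole tissue, fewer cells of a type and less RNA per cell cannot be told apart.

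Promoter windows from RefSeq (GRCm38.p6), from 250 bases before to 50 bases after the start of transcription, matched 70 of the 86 members. They were searched on both strands for the binding motif of heat shock factors, as a pair of units (GAANNTTC or TTCNNGAA) and as 3 alternately inverted GAA units each set apart by 2 bases, so that each triple also holds overlapping pairs. They were searched as well for the ER stress element, CCAAT, then any 9 bases, then CCACG. A member was counted where any of its windows matched, and the 70 members have 90 windows. Counts of members and shares of windows are thus in unlike units. The ER stress element stood in 3 members, all of which act in the ER, and in 0.119% of all 32851 windows. The windows of these members are shown with the element in capitals, because their values are described together further on.
Hspa5: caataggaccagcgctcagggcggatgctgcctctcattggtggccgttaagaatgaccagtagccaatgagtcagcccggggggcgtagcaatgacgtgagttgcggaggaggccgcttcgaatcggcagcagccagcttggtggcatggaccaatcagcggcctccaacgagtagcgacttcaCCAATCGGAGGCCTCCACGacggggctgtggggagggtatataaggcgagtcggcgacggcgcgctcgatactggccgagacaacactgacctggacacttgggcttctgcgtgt
Hsp90b1: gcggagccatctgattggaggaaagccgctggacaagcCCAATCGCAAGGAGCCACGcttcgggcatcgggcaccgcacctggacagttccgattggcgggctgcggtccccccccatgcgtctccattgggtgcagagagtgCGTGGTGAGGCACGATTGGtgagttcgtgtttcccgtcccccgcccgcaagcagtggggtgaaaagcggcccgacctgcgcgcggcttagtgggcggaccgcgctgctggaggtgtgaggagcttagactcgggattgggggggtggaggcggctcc
Dnajc3: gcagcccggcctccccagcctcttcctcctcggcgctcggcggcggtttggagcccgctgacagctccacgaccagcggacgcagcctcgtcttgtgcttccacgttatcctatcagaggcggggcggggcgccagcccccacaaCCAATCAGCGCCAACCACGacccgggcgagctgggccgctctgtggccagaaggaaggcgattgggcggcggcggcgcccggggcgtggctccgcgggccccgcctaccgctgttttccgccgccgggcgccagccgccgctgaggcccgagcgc

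The Hspa5 window is chr2:34771840-34772139 on the plus strand, and the element starts at -65 from the start of transcription. That of Hsp90b1 is chr10:86705395-86705694 on the minus strand, with the element at -212 and -107. For Dnajc3 it is chr14:118937682-118937981 on the plus strand, with the element at -105. A match of letters is a description and does not show binding.

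The heat shock element pair stood in 19 members, among them 4 of 6 small heat shock proteins with a window. It stood in 15.1% of all windows, a share in another unit than the count of members. The triple stood in 4 members, Hspd1, Hspe1, Hsph1 and Dnajb6, and in 0.603% of all windows. The windows of Hspb1 and Hspb6, the small heat shock proteins with the least and the greatest change, and that of Hspd1, which has the triple, are shown with the pairs in capitals.
Hspb1: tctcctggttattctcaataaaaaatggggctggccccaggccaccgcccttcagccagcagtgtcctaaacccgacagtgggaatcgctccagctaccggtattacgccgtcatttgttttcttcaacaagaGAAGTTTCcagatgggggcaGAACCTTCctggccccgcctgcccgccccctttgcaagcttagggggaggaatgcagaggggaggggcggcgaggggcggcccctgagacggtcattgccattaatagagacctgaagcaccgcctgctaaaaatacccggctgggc
Hspb6: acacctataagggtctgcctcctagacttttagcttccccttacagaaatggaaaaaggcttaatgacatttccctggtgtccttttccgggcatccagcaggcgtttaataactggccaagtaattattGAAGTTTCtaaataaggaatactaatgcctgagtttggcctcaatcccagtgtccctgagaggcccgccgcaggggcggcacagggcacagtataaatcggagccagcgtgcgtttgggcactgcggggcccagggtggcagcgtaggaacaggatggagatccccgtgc
Hspd1: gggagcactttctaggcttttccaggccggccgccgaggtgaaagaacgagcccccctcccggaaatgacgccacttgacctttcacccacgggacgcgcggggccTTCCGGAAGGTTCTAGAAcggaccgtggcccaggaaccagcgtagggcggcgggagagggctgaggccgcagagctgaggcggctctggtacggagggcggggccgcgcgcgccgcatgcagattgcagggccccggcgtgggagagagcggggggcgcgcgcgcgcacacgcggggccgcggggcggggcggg

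The Hspb1 window is chr5:135887669-135887968 on the plus strand, with pairs at -117 and -97. The Hspb6 window, one of a pair listed for that gene, is chr7:30553051-30553350 on the plus strand, with a match at -120. The Hspd1 window is chr1:55087883-55088182 on the minus strand, where 3 overlapping pairs from -144 form 2 triples. Hspe1 starts 216 bases away on the other strand, and its window holds these triples too. The other windows listed for Hspb6 and Hspd1 held no pair. With the deposited values Hspb6 was called higher in HDCKO and Hspd1 lower. The Hspd1 call depended on how the libraries were scaled, as given further on. A link between matches and the direction of change was not tested.

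The first comparison set the small heat shock proteins of muscle against the other families. All 7 tested small heat shock proteins rose in HDCKO, by 0.65 to 5.66 on the log2 scale. The other families were split, with 17 of 71 tested members higher, 32 lower and 22 not called. A gene was tested where its mean over the libraries reached 0.5 FPKM, and called where limma, fitted to log2(FPKM + 0.5), gave an adjusted p under 0.05 over all 13288 genes. Of all genes tested, 17.8% were called higher, 42.6% lower and 60.4% in either direction. The other families, with 23.9% higher and 45.1% lower, were near that background, whereas 100% of the small heat shock proteins were higher. Without overlap between the groups, 7 small heat shock proteins lay higher, and 19 members of other families lay higher and 35 lower, where the background was 21.2% and 51.4%. The median log2 change was 2.04 for small heat shock proteins, -0.37 for the other families and -0.50 for all genes tested. Leaving out HDCKO 2 gave 4 small heat shock proteins higher, and 11 higher and 13 lower among the others. Without WT 1, WT 2 or WT 3 the other families had 16, 16 and 13 lower.

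**Figure D1:**
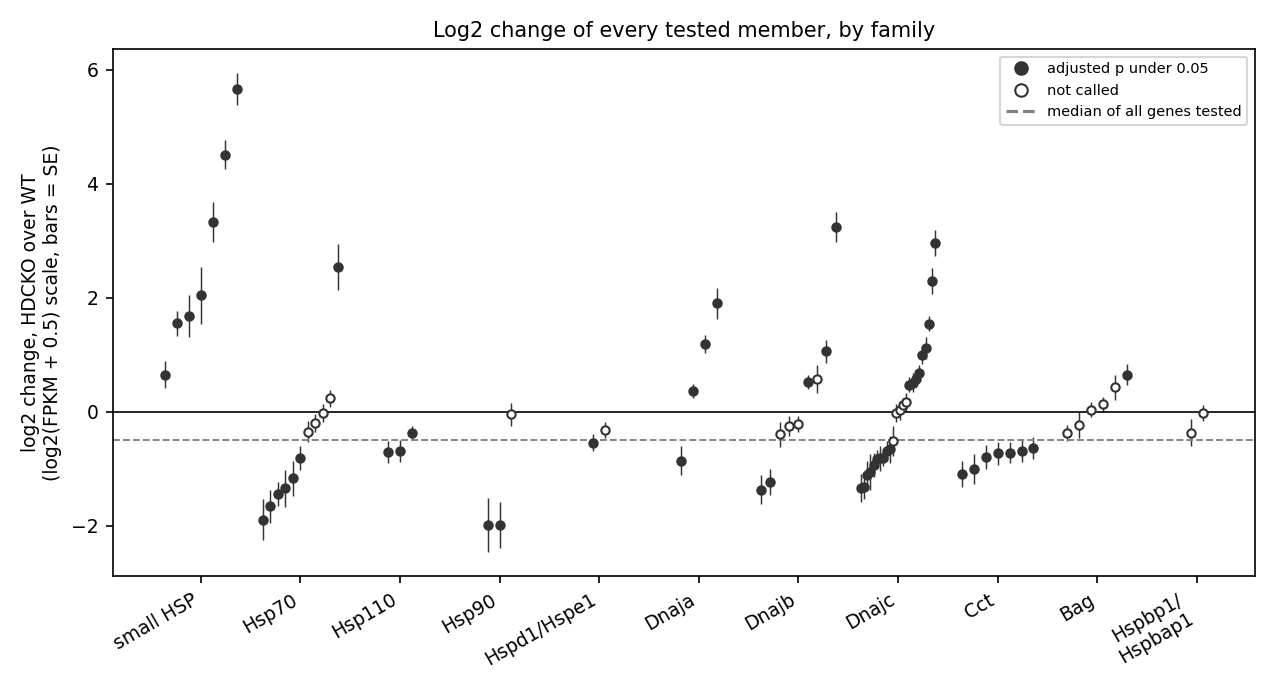
Log2 change of HDCKO over WT for each tested member (vertical axis, log2(FPKM + 0.5) scale, bars = SE), grouped by family along the horizontal axis. Filled points passed an adjusted p of 0.05, open points did not, and the dashed line is the median of all genes tested at -0.50. The small heat shock proteins lie between 0.65 and 5.66, and the Cct subunits between -1.10 and -0.64.

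Hspb6, also called Hsp20, is a small heat shock protein abundant in muscle, encoded on chromosome 7 from 30251603 to 30256218 in GRCm39. It had 271, 267 and 162 FPKM in HDCKO and 5.36, 3.37 and 3.47 FPKM in WT. The lowest HDCKO library was far above the highest WT library (log2 change 5.66, SE 0.28, adjusted p = 1.6e-04). Exons of Lin37 on the opposite strand cover 12.7% of its canonical exon length, so a part of its reads is uncertain. Hspb3, a muscle protein that forms a complex with Hspb2, had 25.1, 18.9 and 18.3 FPKM in HDCKO and 0.802, 0.276 and 0.276 FPKM in WT. Again no library overlapped (log2 change 4.51, SE 0.26, adjusted p = 2.0e-04), and since the WT level is near the added 0.5 FPKM, the fitted change understates the ratio of means, which was 46.

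Hspb2 and Cryab are neighbours on chromosome 9 that are transcribed away from each other, with canonical start sites 329 bases apart in GRCm39. Hspb2 had 59.4, 49.6 and 34.5 FPKM in HDCKO and 6.49, 4.33 and 2.6 FPKM in WT (log2 change 3.32, SE 0.35, adjusted p = 0.00116). Cryab, alpha B crystallin, which protects desmin filaments, had 258, 281 and 204 FPKM in HDCKO and 132, 66.1 and 50.8 FPKM in WT (log2 change 1.68, SE 0.37, adjusted p = 0.0121). The groups did not overlap for either gene. Within a library Hspb2 stood at 0.23, 0.176 and 0.169 of the Cryab level in HDCKO and at 0.0492, 0.0655 and 0.0511 in WT.

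Hspb8, the partner of Bag3 in chaperone-assisted autophagy, had 174, 127 and 149 FPKM in HDCKO and 64.6, 42.7 and 46.4 FPKM in WT (log2 change 1.55, SE 0.22, adjusted p = 0.0032). Hspb7, a small heat shock protein of heart and skeletal muscle that binds filamin C, had 108, 126 and 65.9 FPKM in HDCKO and 41.9, 25.6 and 11.4 FPKM in WT (log2 change 2.04, SE 0.50, adjusted p = 0.0162). Hspb1, or Hsp25, is made in many cell types besides muscle. It had 114, 126 and 91.2 FPKM in HDCKO and 90.5, 62.2 and 60 FPKM in WT (log2 change 0.65, SE 0.23, adjusted p = 0.0457), and its lowest HDCKO library lay just above WT 1. Leaving out HDCKO 2 ended the calls of Cryab (adjusted p = 0.0503), Hspb7 (0.0614) and Hspb1 (0.15). The Hspb1 call also ended without HDCKO 1 (adjusted p = 0.0932), WT 2 (0.132) or WT 3 (0.143).

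The genes with the lowest WT levels, Hspb2, Hspb3 and Hspb6, had the largest changes. Cryab averaged 248 ± 39.8 FPKM in HDCKO and 83 ± 43.1 FPKM in WT, and Hspb1 averaged 111 ± 17.9 FPKM in HDCKO and 70.9 ± 17 FPKM in WT (SD, n = 3 each). By contrast Hspb6 averaged 233 ± 61.9 FPKM in HDCKO and 4.07 ± 1.12 FPKM in WT, and Hspb3 averaged 20.8 ± 3.76 FPKM in HDCKO and 0.451 ± 0.304 FPKM in WT (SD, n = 3 each). Hspb6 stood at 2.37, 2.11 and 1.77 times the Hspb1 level within the HDCKO libraries and at 0.0592, 0.0542 and 0.0579 times within the WT libraries. That pair joins the greatest and the least change of the family, so a gap between the groups follows from the choice. All small heat shock proteins together summed to 1010, 995 and 725 FPKM in HDCKO 1, 2 and 3, and to 342, 205 and 175 FPKM in WT 1, 2 and 3. Within each group the libraries stood in the same order by this sum as by the share of fibre markers, and the part of that share in the result was not tested.

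**Figure D2:**
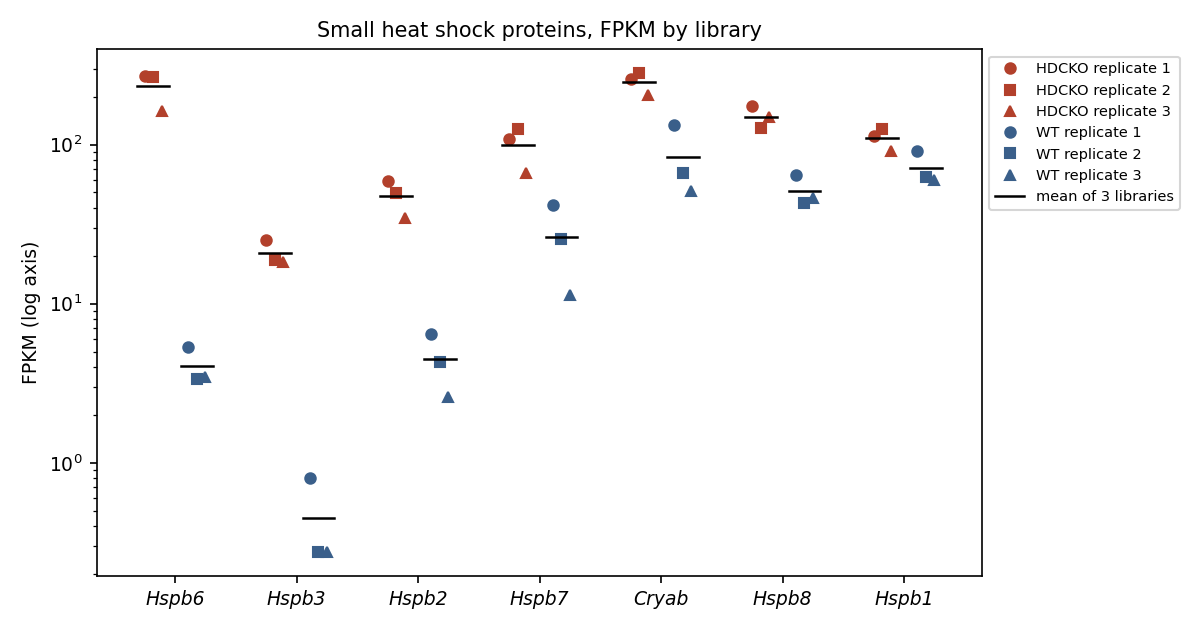
FPKM (log axis) of the 7 tested small heat shock proteins in each library, HDCKO left of WT for each gene, with the mean of 3 libraries as a black line. For each gene the HDCKO libraries lie above the WT libraries, with the widest gap for Hspb6, at 233 FPKM in HDCKO and 4.07 FPKM in WT, and the narrowest for Hspb1.

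Among the Hsp70 proteins 6 of 11 fell (54.5%, beside 42.6% of all genes) and 1 rose. Their median log2 change was -0.81, and -0.28, -0.52 and -0.34 under the other 3 library scalings (median of ratios, quantile normalization, and sums without fibre and mitochondrial genes). Hspa8, the constitutive Hsp70 of the cytosol, had 282, 328 and 400 FPKM in HDCKO and 556, 541 and 657 FPKM in WT (log2 change -0.81, SE 0.21, adjusted p = 0.0201). That call ended without HDCKO 2 (adjusted p = 0.0797) or without any one WT library (0.0551 to 0.0778). Hspa1b, a heat-inducible Hsp70, had 2.05, 3.5 and 3.04 FPKM in HDCKO and 6.78, 13.3 and 10.9 FPKM in WT (log2 change -1.66, SE 0.29, adjusted p = 0.0064). Its near-identical neighbour Hspa1a, named after its values were seen, fell as well (log2 change -1.17, SE 0.31, adjusted p = 0.0198), a call that ended without WT 2 or WT 3 and under each other scaling (adjusted p = 0.16, 0.142 and 0.0957). How reads shared by this pair were counted is not stated in the sources used here, so each value is uncertain. The number of Hsp70 genes called lower was 3 without WT 3.

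Hspa1l, a relative known mainly from testis, was the Hsp70 gene that rose, with 7.62, 8.7 and 2.89 FPKM in HDCKO and 0.778, 0.458 and 0.547 FPKM in WT (log2 change 2.54, SE 0.40, adjusted p = 0.00442). Exons of Gm10501, a noncoding gene on the opposite strand, cover 71.5% of its canonical exon length. Use of strand in counting is not stated in the sources used here, so reads of both genes cannot be told apart. Of 8 male germ cell markers 6 were in the table, none reached the level for testing, and Tnp1, Prm1, Prm2, Odf1 and Ldhc were listed at 0 in each HDCKO library.

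The Hsp110 proteins, which exchange nucleotide on Hsp70, fell in 3 of 3 cases (100%, beside 42.6% of all genes). Their median log2 change was -0.69, beside -0.50 for all genes, and 0 of 3 were called under each other scaling. Hspa4 had 26.4, 27.8 and 41.5 FPKM in HDCKO and 52.9, 49.8 and 51.3 FPKM in WT (log2 change -0.71, SE 0.20, adjusted p = 0.0254). Hsph1, the heat-inducible member, averaged 10 ± 0.277 FPKM in HDCKO and 13.1 ± 0.234 FPKM in WT (SD, n = 3 each), with a log2 change of -0.37 (adjusted p = 0.0346) that turned to 0.14, 0.07 and 0.07 under the other scalings. Hspa4l averaged 1.76 ± 0.474 FPKM in HDCKO and 3.1 ± 0.285 FPKM in WT (SD, n = 3 each), with a log2 change of -0.69 (adjusted p = 0.0241). None of these calls held without HDCKO 1, HDCKO 2 or any one WT library (adjusted p = 0.0531 to 0.119).

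Of the cytosolic Hsp90 genes Hsp90aa1 fell and Hsp90ab1 did not pass, and the difference between their changes was not tested. Hsp90aa1, the stress-inducible form, had 20, 35.2 and 78.9 FPKM in HDCKO and 144, 156 and 163 FPKM in WT (log2 change -1.99, SE 0.47, adjusted p = 0.0148). Hsp90ab1, the constitutive form, had 433, 527 and 589 FPKM in HDCKO and 518, 513 and 557 FPKM in WT (log2 change -0.05, SE 0.20, adjusted p = 0.847), with overlap between the groups. The HDCKO libraries of Hsp90aa1 were widely spread, and HDCKO 3 lay nearest to WT. Within a library Hsp90aa1 stood at 0.0462, 0.0668 and 0.134 of the Hsp90ab1 level in HDCKO and at 0.277, 0.303 and 0.292 in WT. The Hsp90aa1 call ended without HDCKO 2 (adjusted p = 0.0561) or WT 3 (0.0518).

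Chaperones of the ER lumen were lower in HDCKO. The 8 members that work there were grouped by known location after their values were seen, so their counts are a description. Of these 7 fell (87.5%, beside 42.6% of all genes), and Dnajb9 did not pass. The median log2 change of the group was -1.36, beside -0.50 for all genes. Hspa5, or BiP, the Hsp70 of the ER, which also holds the ER stress receptors inactive, had 78.6, 117 and 204 FPKM in HDCKO and 438, 433 and 514 FPKM in WT (log2 change -1.90, SE 0.36, adjusted p = 0.00761). Hsp90b1, or Grp94, the Hsp90 of the ER, which folds integrins and Toll-like receptors, had 62.6, 112 and 188 FPKM in HDCKO and 446, 371 and 502 FPKM in WT (log2 change -1.99, SE 0.41, adjusted p = 0.00971). For both genes HDCKO 3 was the highest HDCKO library and still below every WT library. Exons of Rabepk on the opposite strand cover 26.5% of the canonical exon length of Hspa5, so a part of its reads is uncertain.

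Of the J proteins in this lumen group, Dnajb11, Dnajc1, Dnajc3 and Dnajc10 fell. J proteins placed elsewhere in the ER were not examined as a group. Dnajb11, a cofactor of BiP, had 13.7, 16.1 and 26.6 FPKM in HDCKO and 44.9, 45.5 and 52.6 FPKM in WT (log2 change -1.37, SE 0.26, adjusted p = 0.00772). Dnajc3, an inhibitor of the kinase that slows translation, and Dnajc10, a disulfide reductase, were named after their values were seen. Dnajc3 averaged 14.6 ± 3.71 FPKM in HDCKO and 36.3 ± 0.929 FPKM in WT, and Dnajc10 averaged 23.9 ± 7.44 FPKM in HDCKO and 59.5 ± 5.01 FPKM in WT (SD, n = 3 each), with log2 changes of -1.32 and -1.34. Hspa13, a microsomal relative of Hsp70, had 4.2, 5.29 and 7.05 FPKM in HDCKO and 15, 17.4 and 14.6 FPKM in WT (log2 change -1.45, SE 0.21, adjusted p = 0.00333). Dnajb9, which recruits BiP to the stress receptor Ire1, overlapped between the groups, with 24.9, 29.7 and 21.7 FPKM in HDCKO and 30, 43.9 and 28.6 FPKM in WT (log2 change -0.40, SE 0.22, adjusted p = 0.148). The genes whose windows hold the ER stress element, Hspa5, Hsp90b1 and Dnajc3, are among those that fell. Dnajb11, Dnajc1 and Dnajc10, whose windows do not hold it, fell too, and the part of the element was not tested.

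**Figure D3:**
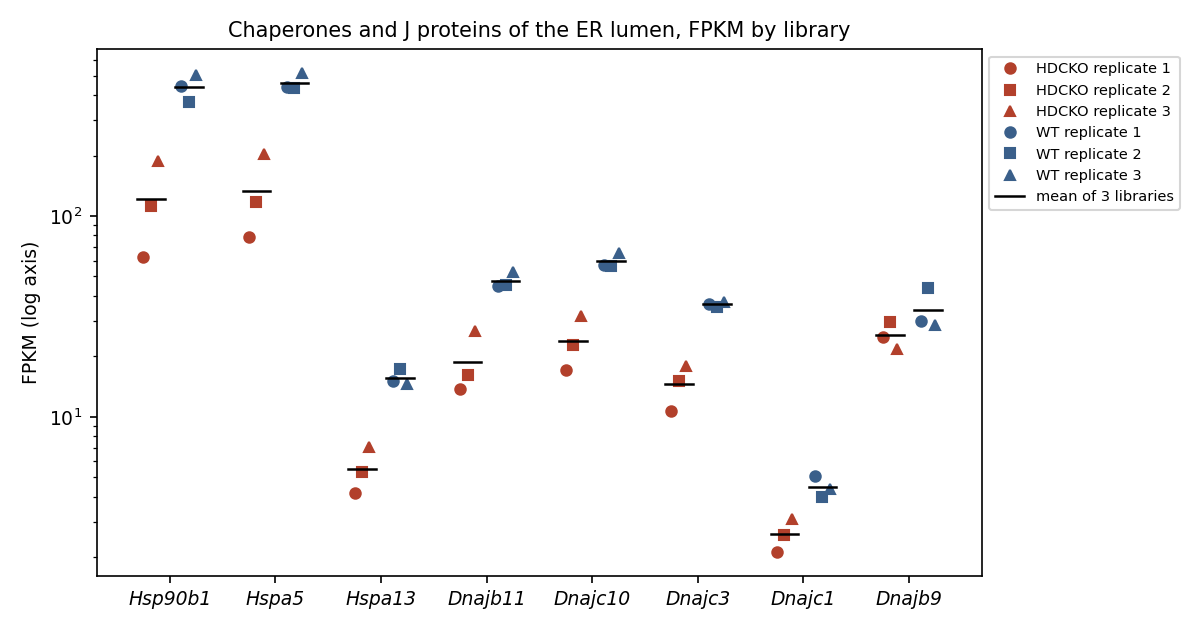
FPKM (log axis) of the 8 members of the ER lumen in each library, HDCKO left of WT for each gene, with the mean of 3 libraries as a black line. For every gene except Dnajb9 the HDCKO libraries lie below the WT libraries, as for Hspa5 with a mean of 133 FPKM in HDCKO and 461 FPKM in WT, and HDCKO 3 lies nearest to WT.

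ER folding genes without heat shock names, taken from a list of 14, fell in 12 cases (85.7%, beside 42.6% of all genes) and rose in 1. Their median log2 change was -2.06. P4hb, a disulfide isomerase that is also a subunit of collagen prolyl hydroxylase, had 86.5, 111 and 187 FPKM in HDCKO and 559, 518 and 567 FPKM in WT (log2 change -2.17, SE 0.30, adjusted p = 0.00304). The ER stress proteins Manf (log2 change -2.33, adjusted p = 0.006) and Creld2 (log2 change -2.33, adjusted p = 0.00381) fell as well. Herpud1, a membrane protein of ER-associated degradation, rose, with 63.2, 68.6 and 50.9 FPKM in HDCKO and 22, 25.3 and 24.4 FPKM in WT (log2 change 1.32, SE 0.16, adjusted p = 0.00207). The ER lumen members of the heat shock families summed to 214, 320 and 501 FPKM in HDCKO 1, 2 and 3. In WT 1, 2 and 3 they summed to 1072, 1006 and 1218 FPKM. Macrophage markers, 12 genes, made up 0.072%, 0.214% and 0.521% of FPKM in HDCKO 1, 2 and 3, and 0.694%, 0.548% and 0.743% in WT 1, 2 and 3, in the same order of libraries as that sum within each group. Cell cycle genes, 12 in number, made up 0.000913%, 0.00415% and 0.0337% in HDCKO and 0.0549%, 0.058% and 0.0726% in WT. Neutrophil markers made up 0.012%, 0.0227% and 0.0233% in HDCKO and 1.04%, 3.59% and 0.671% in WT. For endothelial markers it was 0.0502%, 0.0617% and 0.0758% in HDCKO and 0.144%, 0.152% and 0.106% in WT. These lists followed the order of the ER sum within HDCKO but not within WT. No macrophage or cell cycle gene listed was at 0 in all libraries of a group. The part of any of these cells in the result was not tested.

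HDCKO 3 stood nearest to WT in most called members. It was the HDCKO library closest to WT in 29 of the 32 members that fell and in 21 of the 24 that rose. Among all genes called lower and higher it was closest in 91.4% and 73.6%.

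The J proteins split in direction. In Dnaja 3 of 4 rose and 1 fell (75% and 25%). In Dnajb 3 of 9 tested rose and 2 fell (33.3% and 22.2%). In Dnajc 9 of 24 tested rose and 10 fell (37.5% and 41.7%). Among all genes tested 17.8% were called higher and 42.6% lower, so the Dnajc share that fell was near that of all genes. The Dnajc counts were 5 higher and 6 lower without WT 1, and 5 and 6 were lower without HDCKO 2 and without WT 3. Under the other scalings Dnajc had 13, 11 and 12 higher and 4, 6 and 6 lower, and no Dnaja gene was called lower. Dnajb5, a J protein that in heart muscle regulates a histone deacetylase, had 49.2, 34.3 and 25.5 FPKM in HDCKO and 3.89, 2.89 and 3.08 FPKM in WT (log2 change 3.24, SE 0.26, adjusted p = 5.1e-04). Dnajc28, assigned to mitochondria, had 8.56, 7.3 and 4.87 FPKM in HDCKO and 0.516, 0.384 and 0.391 FPKM in WT (log2 change 2.96, SE 0.23, adjusted p = 4.4e-04). Dnajc27, which carries a Rab-like GTPase domain, had 12.3, 9.3 and 6.62 FPKM in HDCKO and 1.39, 1.49 and 1.53 FPKM in WT (log2 change 2.29, SE 0.23, adjusted p = 0.00106). In these genes every HDCKO library was above every WT library, and HDCKO 3 was the lowest of its group.

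Dnaja4, a cytosolic J protein, had 25.5, 22.8 and 13.1 FPKM in HDCKO and 5.74, 4.77 and 4.35 FPKM in WT (log2 change 1.90, SE 0.27, adjusted p = 0.00344). Dnajc12, which serves the aromatic amino acid hydroxylases, had 7.43, 7.43 and 7.3 FPKM in HDCKO and 2.06, 2.13 and 2.47 FPKM in WT (log2 change 1.54, SE 0.13, adjusted p = 6.4e-04), with little spread in either group. Dnajb2, which sorts clients to the proteasome and is known from neurons and muscle, averaged 16.4 ± 3.39 FPKM in HDCKO and 7.53 ± 0.993 FPKM in WT (SD, n = 3 each) and rose by 1.06 on the log2 scale (adjusted p = 0.00788). Dnajc21, a factor of ribosome assembly, averaged 9.07 ± 0.968 FPKM in HDCKO and 4.31 ± 0.523 FPKM in WT (SD, n = 3 each) and rose by 0.99 (adjusted p = 0.00448).

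Dnajb1, the heat-inducible partner of Hsp70, went the other way, with 5.98, 7.82 and 11 FPKM in HDCKO and 17.8, 19.6 and 21.3 FPKM in WT (log2 change -1.23, SE 0.23, adjusted p = 0.00766). Dnaja1, another Hsp70 partner of the cytosol, averaged 26.2 ± 8.41 FPKM in HDCKO and 46.2 ± 2.76 FPKM in WT (SD, n = 3 each), with a log2 change of -0.86 (adjusted p = 0.0276), but exons of Smu1 on the opposite strand cover 85.3% of its canonical exon length. Dnajc8, tied to the spliceosome, had a log2 change of -0.82 (adjusted p = 0.0204). The calls of Dnaja1 and Dnajc8 ended without HDCKO 2 or any one WT library (adjusted p = 0.0573 to 0.0864). They also ended under each other scaling, with log2 changes of -0.33, -0.45 and -0.40 for Dnaja1 (adjusted p = 0.0857, 0.0565 and 0.131) and -0.30, -0.44 and -0.36 for Dnajc8 (0.0992, 0.0574 and 0.116). Dnaja2 averaged 64.9 ± 0.292 FPKM in HDCKO and 50.6 ± 1.14 FPKM in WT (SD, n = 3 each), a log2 change of 0.36 (adjusted p = 0.0439) that held without HDCKO 3 and missed the threshold without each other library (0.0772 to 0.139).

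Members that act in mitochondria were also grouped by known location after their values were seen, so their counts are a description. Of 9, 5 rose (55.6%, beside 17.8% of all genes) and 1 fell (11.1%, beside 42.6%), with a median log2 change of 0.58. Under each other scaling 7 rose and 0 fell. Each of these scalings raised the median of all genes, which by construction favours calls of higher genes, so this gain is no added support. Without WT 1 there were 3 that rose. Dnaja3, the J protein of the matrix, had 42.2, 40.1 and 33.3 FPKM in HDCKO and 18.7, 15.3 and 16.2 FPKM in WT (log2 change 1.18, SE 0.16, adjusted p = 0.00269). Dnajc15, a J protein of the import motor of the inner membrane, had 79.4, 80.2 and 57.4 FPKM in HDCKO and 33.7, 35.6 and 28.8 FPKM in WT (log2 change 1.12, SE 0.19, adjusted p = 0.00542). The chaperonin of the matrix did not rise. Hspd1, or Hsp60, had 78.9, 83.8 and 96.7 FPKM in HDCKO and 116, 131 and 133 FPKM in WT (log2 change -0.55, SE 0.15, adjusted p = 0.0238), and its lid Hspe1 averaged 84 ± 6.76 FPKM in HDCKO and 105 ± 4.74 FPKM in WT (SD, n = 3 each) and did not pass (log2 change -0.32, adjusted p = 0.0915). The Hspd1 call held without HDCKO 3 and ended without each other library (adjusted p = 0.0551 to 0.0943). The mitochondrial Hsp70, Hspa9, named after its values were seen, had 139, 145 and 123 FPKM in HDCKO and 122, 116 and 110 FPKM in WT (log2 change 0.23, SE 0.15, adjusted p = 0.216). Transcripts encoded by the mitochondrial genome made up 18.4%, 14.9% and 11.9% of FPKM in HDCKO 1, 2 and 3, and 3.99%, 3.49% and 3.79% in WT 1, 2 and 3, and their part in the result was not tested.

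The tested subunits of the Cct ring shared a direction. All 7 fell (100%, beside 42.6% of all genes), with a median log2 change of -0.73, beside -0.50 for all genes. Under the other scalings, in the order given, their median was -0.20, -0.42 and -0.27, and 2, 4 and 1 of them were called. Cct3 had 42.4, 50.8 and 75.4 FPKM in HDCKO and 115, 120 and 119 FPKM in WT (log2 change -1.10, SE 0.23, adjusted p = 0.0104). Cct2 had 50, 60.4 and 95.7 FPKM in HDCKO and 136, 132 and 134 FPKM in WT (log2 change -1.01, SE 0.26, adjusted p = 0.0177). The WT libraries lay close together for these subunits while the HDCKO libraries were spread, with HDCKO 3 nearest to WT in all 7. Tcp1, a further subunit under another stem, had 75.6, 86.6 and 101 FPKM in HDCKO and 131, 122 and 124 FPKM in WT (log2 change -0.53, SE 0.16, adjusted p = 0.0317), and its change under other scalings was 0.003, -0.27 and -0.06, called in none. Leaving out HDCKO 2, WT 1, WT 2 or WT 3 left 1 subunit called in each case, and that was Cct3. The Tcp1 call held without HDCKO 3 and ended without each other library (adjusted p = 0.0718 to 0.107). Prefoldin brings clients to the ring. Of 7 genes, Tcp1 and the prefoldin subunits, 1 rose (14.3%, beside 17.8% of all genes) and 2 fell (28.6%, beside 42.6%). Under each other scaling 0 of them were called lower. Pfdn1 rose (log2 change 0.73, adjusted p = 0.00819), Pfdn4 fell (-0.85, adjusted p = 0.0113), and Pfdn6 did not pass (-0.22, adjusted p = 0.224).

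In the Bag family 1 of 6 passed with the deposited values, as higher (16.7%, beside 17.8% of all genes). Under the other scalings 2, 3 and 4 were called higher, and the median log2 change was 0.61, 0.39 and 0.54 in place of 0.08. Bag2, an inhibitor of the ubiquitin ligase Stub1, had 7.38, 5.1 and 5.52 FPKM in HDCKO and 3.07, 3.62 and 4.14 FPKM in WT (log2 change 0.65, SE 0.19, adjusted p = 0.0282). Its call held without HDCKO 3 and ended without each other library, which left 0 of the family called (adjusted p = 0.0542 to 0.101). Bag3, the partner of Hspb8 at the Z disc, had 60, 45.5 and 35.6 FPKM in HDCKO and 36.6, 31.1 and 34.8 FPKM in WT (log2 change 0.43, SE 0.22, adjusted p = 0.128). HDCKO 3 lay among the WT libraries of Bag3, and without HDCKO 3 the gene passed (adjusted p = 0.0192). Bag1 averaged 109 ± 4.78 FPKM in HDCKO and 106 ± 2.05 FPKM in WT (SD, n = 3 each; log2 change 0.03, adjusted p = 0.834). Bag5 (log2 change -0.38, adjusted p = 0.0557) and Bag6 (0.13, adjusted p = 0.395) did not pass. Under the other scalings Bag6 was called higher each time (log2 changes 0.66, 0.51 and 0.59, adjusted p = 0.0169, 0.0134 and 0.00892), and without fibre and mitochondrial genes in the sum Bag1 (adjusted p = 0.0262) and Bag3 (0.0358) were as well. Bag3 also passed with quantile normalization (adjusted p = 0.0495), and Bag5 turned to 0.13, 0.06 and 0.06 with no call. Hspbp1, a nucleotide exchange factor of Hsp70, and Hspbap1, a protein that binds Hspb1, match the stems by spelling and did not pass (log2 changes -0.03 and -0.37, adjusted p = 0.849 and 0.216), though Hspbp1 was called higher under each other scaling (adjusted p = 0.0486, 0.0475 and 0.0406).

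The 3 tested heat shock factors, which switch on heat shock genes, rose, where 17.8% of all genes tested were called higher. Hsf1, the main factor of the response, had 13.6, 13.1 and 12.3 FPKM in HDCKO and 9.78, 8.83 and 10.8 FPKM in WT (log2 change 0.39, SE 0.14, adjusted p = 0.0475). Hsf4 had 3.08, 2.77 and 2.36 FPKM in HDCKO and 0.921, 0.445 and 0.835 FPKM in WT (log2 change 1.41, SE 0.21, adjusted p = 0.00387). Hsf2 rose by 0.48 (adjusted p = 0.0445), and Hsbp1, which binds Hsf1, did not pass (log2 change 0.04, adjusted p = 0.84). The Hsf1 and Hsf2 calls held without HDCKO 3 and ended without each other library (adjusted p = 0.0686 to 0.149). With quantile normalization Hsf2 missed the threshold (adjusted p = 0.0501), and without fibre and mitochondrial genes in the sum Hsbp1 passed as higher (adjusted p = 0.0366).

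Of 22 partner proteins of Hsp70 and Hsp90 outside the symbol stems, 4 rose (18.2%, beside 17.8% of all genes) and 5 fell (22.7%, beside 42.6%). Their median log2 change of -0.09 turned to 0.42, 0.32 and 0.35 under the other scalings. Trap1, the Hsp90 of mitochondria, had 61.2, 70.5 and 59.6 FPKM in HDCKO and 31.3, 29.7 and 33 FPKM in WT (log2 change 1.01, SE 0.14, adjusted p = 0.0028). The cochaperone Ptges3 fell (-1.26, adjusted p = 0.0065), as did the membrane immunophilin Fkbp8 (-0.86, adjusted p = 0.00876), while the immunophilin Fkbp4 rose (0.70, adjusted p = 0.00938). Those that rose numbered 2 without HDCKO 2 or WT 3. Those that fell numbered 3 without HDCKO 2 and 2 without WT 1, WT 2 or WT 3.

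A list of muscle chaperone clients and assembly factors holds myosin assembly genes beside Z disc and filament genes. Of its 11 genes 7 rose (63.6%, beside 17.8% of all genes) and 1 fell (9.09%, beside 42.6%), with a median log2 change of 4.24. Bag3 is also on that list. Unc45b, the myosin chaperone of striated muscle, had 85.2, 64.6 and 56.1 FPKM in HDCKO and 3.84, 3.32 and 2.33 FPKM in WT (log2 change 4.24, SE 0.23, adjusted p = 1.9e-04). Its general relative Unc45a, named after its values were seen, was the one that fell (log2 change -0.78, SE 0.19, adjusted p = 0.0152), a call that ended without HDCKO 2 or WT 2 and under each other scaling. Smyd1, which works with Unc45b on myosin, had 203, 158 and 107 FPKM in HDCKO and 2.27, 0.73 and 1 FPKM in WT (log2 change 6.46, SE 0.37, adjusted p = 2.0e-04). The Z disc protein Ldb3 (log2 change 6.65, adjusted p = 2.9e-04) and Synpo2, which works with Bag3 in autophagy (3.42, adjusted p = 5.4e-04), rose as well.

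The direction of several families depended on how the libraries were scaled. Median-of-ratios scaling put the median of all genes at -0.04 in place of -0.50, with 26.3% of genes called higher and 26.3% lower. Quantile normalization put it at -0.12, with 23.6% higher and 30.3% lower. The last scaling, which left fibre and mitochondrially encoded genes out of each library's sum, put it at -0.09. All 7 small heat shock proteins and all 17 higher members of other families were still called under each of these. Each scaling raised the median of all genes, which by construction favours calls of higher genes and removes calls of lower ones. The higher calls kept here are therefore no sign of stability. Of the 32 lower members 13 were still called, among them 6 of the ER lumen group, with Dnajc1 lost. The median of the other families turned to 0.13, 0.01 and 0.06 under the 3 scalings in the order given. Cct subunits called lower numbered 2, 4 and 1, and Hspa8, Hspd1 and the Hsp110 genes were called under none of them. Hsp90ab1, at -0.05 with the deposited values, was at 0.48, 0.24 and 0.42. Hsp90ab1 was called higher with median-of-ratios scaling alone (adjusted p = 0.0451). The calls of Tcp1 (adjusted p = 0.989, 0.112 and 0.686) and Pfdn4 (0.158, 0.0812 and 0.0928) ended under each of these scalings, that of Fkbp8 ended under the first (0.0508), and that of Cct2 under the last (0.0624).

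**Figure D4:**
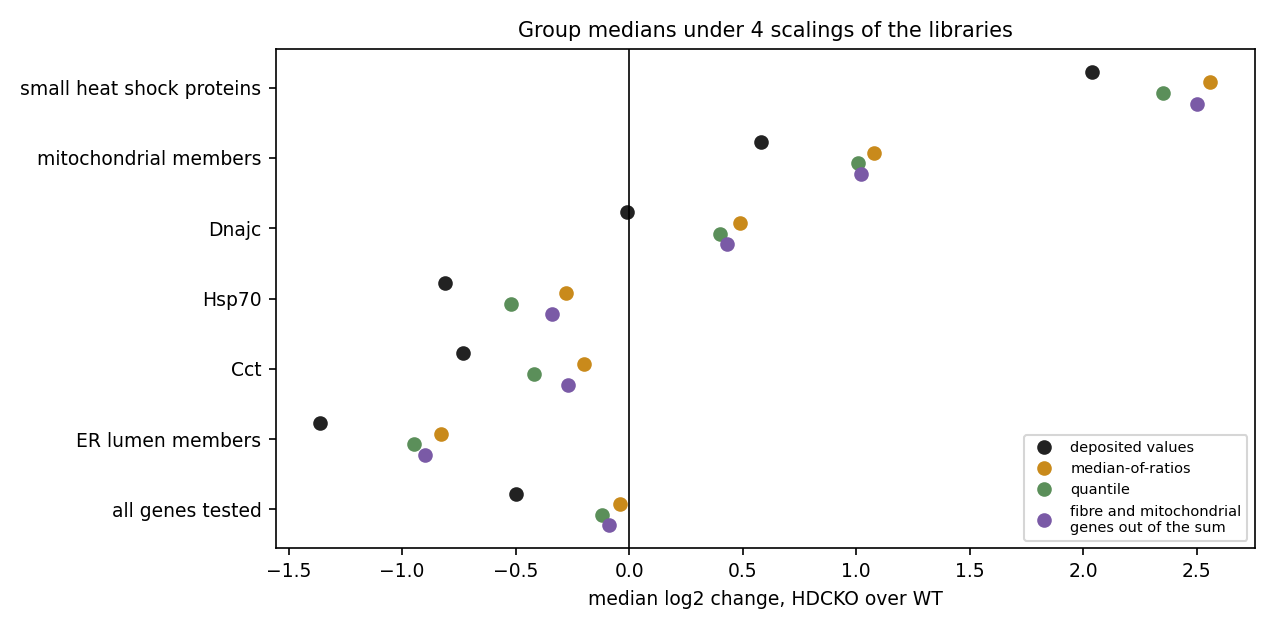
Median log2 change of HDCKO over WT (horizontal axis) for groups of members and for all genes tested (vertical axis), under the deposited values and 3 other scalings (colours). The small heat shock proteins lie between 2.04 and 2.56 and the ER lumen members between -1.36 and -0.83. The Dnajc median moves from -0.01 to between 0.40 and 0.49.

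The remaining 8 members were too low to test. Hspb9, Dnajb3, Dnajb7, Dnajb8, Dnajb13, Dnajc6, Dnajc22 and Cct6b averaged 0.00408 to 0.245 FPKM over the libraries, and the highest single value was 0.636 FPKM for Dnajb3. Hspbap1, at a mean of 0.659 FPKM, was the tested member nearest to the limit. Hspb9, a small heat shock protein of testis, was listed at 0 in each HDCKO library and reached 0.125 FPKM in WT 3. Exons of Rab5c on the opposite strand cover 100% of its canonical exon length, so the source of its reads is uncertain.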

How the data were processed

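RNA was sequenced from muscle of 3 HDCKO and 3 WT mice. The deposited table holds FPKM that the authors computed from a count matrix, per the series' design text. The submitters' processing notes name FastQC 0.11.9, HISAT2 2.1.0, HTSeq 0.11.2, STAR 2.7.11b, DESeq2 1.22.2 and the GRCm39 build. Which aligner lay behind these values, strand use and shared reads are not stated in the sources used here.

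FPKM are not counts, so limma-trend (limma 3.58.1, R 4.3.3) was fitted to log2(FPKM + 0.5) for the 13288 genes averaging at least 0.5 FPKM, HDCKO against WT without covariates, with Benjamini-Hochberg adjustment, after a check on simulated data. The added 0.5 damps changes of low genes. Depth was estimated from genes with low values, each value taken as 1 fragment, as the most common result, and entered no test. In each library only 59 to 101 of 3164 to 4717 such genes gave that result, so the estimate is rough. Exon overlaps came from canonical transcripts in GRCm39. Genes named were all tested small heat shock proteins, the 4 with the smallest p and the 2 with the highest mean in each other family, the 4 with the smallest p in each outside list, and Hdc. Members and lists were chosen with earlier results of these data known. Alternatives were other pseudocounts, filters, scalings, sample weights, a replicate block and left-out libraries. P-values set the difference between the groups against the spread between these mice, moderated over all genes. They cannot tell genotype apart from anything else that the mice of a group share.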

Additional observations from a re-analysis of the deposited data

How the results depend on the processing

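Other pseudocounts and a filter at 1 FPKM changed the call of no named gene they tested, and no filter ended 5 calls, of Hsf1 (adjusted p = 0.0519), Hsf2 (adjusted p = 0.103), Hspa4l (adjusted p = 0.0564), Hspa8 (adjusted p = 0.0622), Hspb1 (adjusted p = 0.0724), leaving 6 small heat shock proteins higher. In the order median of ratios, quantile normalization and library sums without fibre or mitochondrial genes, members called lower were 14, 18 and 15 in place of 32, all of them in the other families, whose higher members were 26, 24 and 26 in place of 17. The median of all members (-0.24) became 0.22, 0.14 and 0.16, and that of the other families (-0.37) became 0.13, 0.01 and 0.06, or -0.29 with no filter and -0.28 with sample weights.

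Medians that changed sign in that order were those of Dnajb (0.31, 0.23 and 0.24), Dnajc (0.49, 0.40 and 0.43), partner proteins (0.42, 0.32 and 0.35, and 0.00 with sample weights) and prefoldin with Tcp1 (0.30, 0.14 and 0.24), with the chaperonin at 0.09 and 0.03 in the first and last. So did log2 changes of Hsph1 (0.14, 0.07 and 0.07), Hsp90ab1 (0.48, 0.24 and 0.42), Bag5 (0.13, 0.06 and 0.06), Hspbp1 (0.48, 0.42 and 0.42) and Pfdn6 (0.30, 0.14 and 0.24), and in the first and last Hspe1 (0.21 and 0.14) and Dnajb9 (0.12 and 0.05), with Tcp1 at 0.003 in the first. The cause was not tested.

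Leaving out 1 library at a time gave 15 to 26 members higher and 13 to 35 lower, 4 to 7 small heat shock proteins higher, and 10 to 19 other members higher and 13 to 35 lower; the median of all members ran from -0.32 to -0.15. Values that crossed 0 ran from -0.13 to 0.06 for the Dnajc median, -0.15 to 0.07 for Hsp90ab1, -0.002 to 0.05 for Bag1, -0.09 to 0.04 for Hspbp1 and -0.04 to 0.13 for Hsbp1.

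With the replicate number as a block 19 members were higher and 28 lower, with 6 small heat shock proteins higher, Hspb1 being lost (adjusted p = 0.0613). Deviations of same-numbered libraries correlated at 0.122, 0.067 and 0.138, and HDCKO 2 correlated best with WT 1 (0.112), so the numbers were not taken as pairs. Groups of 3 limit the precision, and genes averaging under 0.5 FPKM were not tested.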

Other observations

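Ratios of members within a library do not change when a library is scaled by 1 factor, though quantile normalization can change them. These pairs were chosen after their values were seen and are given with no test. The same holds for the ratios of Hspb6 to Hspb1, Hspb2 to Cryab and Hsp90aa1 to Hsp90ab1 given further up. Cryab stood at 0.917, 0.858 and 0.509 of the Hspa8 level in HDCKO 1, 2 and 3, and at 0.237, 0.122 and 0.0774 in WT 1, 2 and 3. The ER Hsp70, Hspa5, stood at 0.564, 0.802 and 1.66 times the level of the mitochondrial Hsp70, Hspa9, in HDCKO, and at 3.59, 3.74 and 4.68 times in WT. Neither ratio overlapped between the groups.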
